A study of Mus musculus with 148 samples.

Results

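Mettl14 and Rbm15 encode subunits of the complex that writes N6-methyladenosine (m6A) on RNA, and both genes lie on chromosome 3, the chromosome that Xist RNA silences in the iXist-Chr3 mouse embryonic stem cell (mESC) line. They were taken by name from the 2 tables of allelic expression on chromosome 3 after 3 days of differentiation, and both genes were listed in both tables, as 2 of 557 genes found in either. METTL14 pairs with the catalytic subunit METTL3 and helps it to bind RNA. RBM15 binds RNA and brings the complex to chosen transcripts, Xist among them. Each gene is therefore both part of the machinery that modifies Xist and a target of Xist-mediated silencing on the chromosome that carries the transgene.

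iXist-Chr3 is an XY line from a cross of 129S and castaneus (Cast) mice, in which a multicopy Xist transgene under a doxycycline-inducible promoter sits on the Cast chromosome 3. Chromatin-associated RNA was sequenced (ChrRNA-seq) and reads were assigned to an allele by SNPs, so that the allelic ratio, Xi/(Xi + Xa), is the share of a gene's assigned reads that came from the chromosome with the transgene. The WT line and 1 Suz12 null line, which lacks a core subunit of Polycomb repressive complex 2, each had 3 libraries without doxycycline (NoDox) and 3 with it (Dox). Lbr null cells, which lack the inner nuclear membrane protein lamin B receptor, were 3 clones (4C7A, 4C8E and 4F9F) with 1 NoDox and 1 Dox library each, and their table held 1 WT NoDox and 1 WT Dox library, called the WT pair here, whose titles name mRNA. All 20 libraries came from cells grown for 3 days in differentiation medium, and read depth per gene and library is unknown, so single ratios carry no interval. The study describes the numbered libraries as biological replicates, and the labels do not say how they were separated, so p-values measure the spread between these libraries.

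Mettl14 lies at chr3:123368295-123385990 (mm10, minus strand), and its transcript has 11 exons that cover 14.8% of the span. Rbm15 lies at chr3:107326110-107333289 (minus strand), 16.0 Mb from Mettl14, and has 2 exons that cover 45.5% of the span. Mettl14 was 2.42 Mb from the annotated insertion of the transgene and Rbm15 18.5 Mb from it. Of 538 genes with WT values, 1 lay between Mettl14 and the insertion and 62 lay between Rbm15 and the insertion. Rbm15 was the more highly expressed of the pair, with the authors' RPKM at 71.4, rank 29 of 538 from the highest, against 8.94 and rank 307 for Mettl14. The median over the table was 10.8, and the library behind this single expression value per gene is not named.

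The guides designed to disrupt Rbm15 are shown because they place the disrupted part of the gene, and the Rbm15 null libraries were not analysed here. Both matched the mouse reference (mm10) once within the gene and its flanks, inside the coding part of exon 1, and the PAM read from the genome is in capitals. The guide 1 match is chr3:107332896-107332915 on the plus strand and the guide 2 match is chr3:107331651-107331670 on the minus strand, with 1225 bases between them.
Guide 1: tcaccgccacgggagcgcttGGG
Guide 2: gcacgagaatttgaccgattTGG

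Xist induction lowered the share of RNA from the transgene chromosome for both genes in WT cells, more for Mettl14 than for Rbm15. Mettl14 had NoDox ratios of 0.393, 0.393 and 0.428 and Dox ratios of 0.171, 0.179 and 0.226. The highest Dox value stayed well under the lowest NoDox value. The Dox minus NoDox difference (z, negative when the gene is silenced) was -0.212 ± 0.0298 (SD of the Dox libraries, n = 3), with an adjusted p of 4.07e-05 in limma. Relative to Xa, the Xi signal fell to 34.8% of its uninduced level, a log2 change in the Xi:Xa ratio of -1.52 ± 0.27. Rbm15 had NoDox ratios of 0.471, 0.478 and 0.486 and Dox ratios of 0.328, 0.341 and 0.341. Its groups did not overlap either, and its Dox libraries were closer together than those of Mettl14. Its z was -0.141 ± 0.00764 (n = 3), with an adjusted p of 6.27e-06 in limma, and its Xi:Xa ratio kept 55.4% of the uninduced level, a log2 change of -0.85 ± 0.05. An exact permutation test on 3 against 3 libraries cannot go below p = 0.1, and both genes gave p = 0.1. In bulk libraries, fewer cells with Xist and less Xi RNA per cell cannot be told apart. Being silenced set neither gene apart, since 85.5% of the 538 genes had a lower ratio with Dox at an adjusted p under 0.05.

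Set among all 538 genes, Mettl14 ranked 201 from the most silenced in WT and Rbm15 ranked 297, around a median z of -0.158. By the classes used for these lines (high below -0.2, low from -0.2 to -0.05), Mettl14 was in the high class with 39.6% of genes, just past its border, and Rbm15 in the low class with 52.6%. On the log2 scale of the Xi:Xa ratio the ranks were 179 and 314. Mettl14 began lower than Rbm15 in every line. Its NoDox ratio averaged 0.404 ± 0.0202 in WT against 0.478 ± 0.00771 for Rbm15 (SD, n = 3), and the difference was negative in 3 of 3 libraries. The spread within groups over the 12 libraries of the WT and Suz12 null table was close to the median gene's for Mettl14 (residual SD 0.0347 against 0.0348), while 4.65% of genes had a smaller one than Rbm15 (0.0116).

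**Figure D1:**
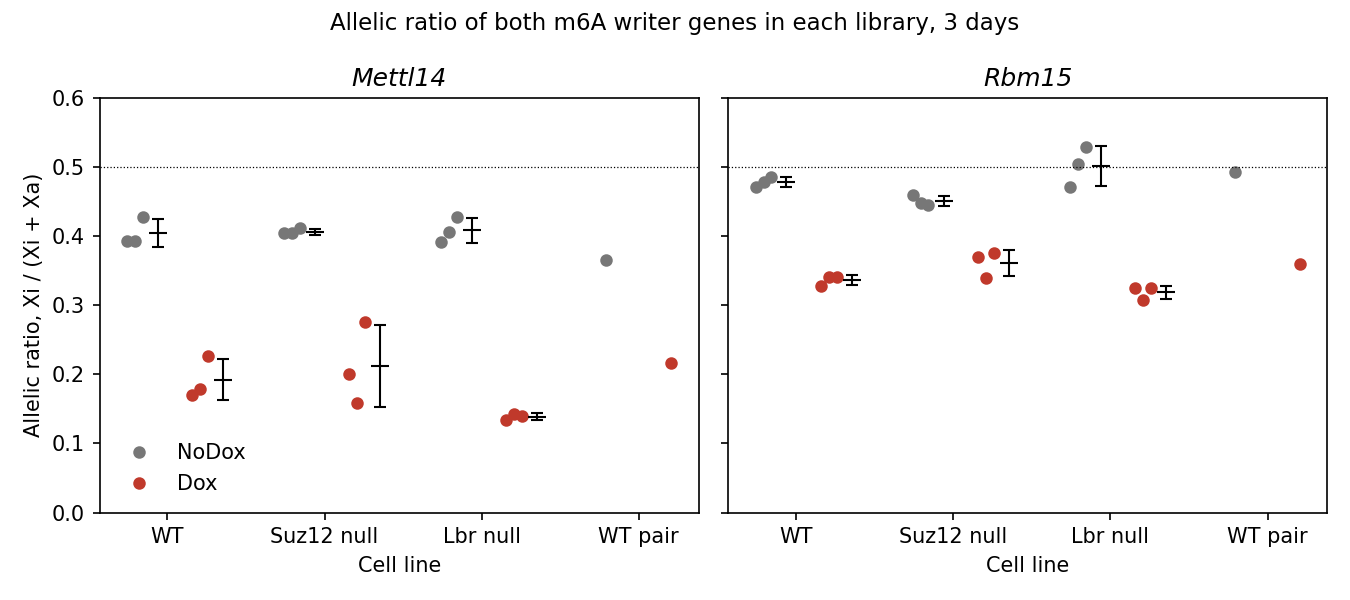
Allelic ratio (share of assigned reads from the transgene chromosome, y axis) of Mettl14 and Rbm15 in each NoDox (grey) and Dox (red) library of the 4 sets of libraries on the x axis. Black marks are means with SD for n = 3, and the dotted line marks equal alleles; every Dox value of a set lies below its NoDox values, and Mettl14 in Lbr null clones is lowest, from 0.133 to 0.143.

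Neighbouring genes were mostly more silenced than either writer gene. Within 2 Mb of Mettl14, measured between gene midpoints, 17 genes had WT values, of which 16 lay on the centromeric side. All 17 were called silenced in WT, their median z was -0.284, and 14 of them had a lower z than Mettl14. The nearest listed gene on the centromeric side was Sec24d, a COPII vesicle coat subunit. Its listed end is 2.66 kb from that of Mettl14, on the opposite strand. Sec24d was also the least silenced neighbour, with a z of -0.115 ± 0.0216 (n = 3, adjusted p = 0.00745 in limma) from a NoDox ratio of 0.309. The nearest listed gene on the other side, the small nucleolar RNA host gene Snhg8, had a z of -0.337 ± 0.0217 (n = 3, limma adjusted p = 7.46e-07). The most silenced neighbour was Pde5a, a cGMP phosphodiesterase, with a z of -0.402 ± 0.0273 (n = 3, limma adjusted p = 2.22e-06). Among the 77 genes within 10 Mb of the insertion, whose median z was -0.273, Mettl14 ranked 52 from the most silenced.

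Rbm15 had 31 neighbours with WT values, of which 29 were called silenced, and 25 of the 31 had a lower z than Rbm15. Their median z was -0.228. Lamtor5, a subunit of the lysosomal Ragulator complex, was the nearest listed gene on the centromeric side. Its mean z was the closest to 0, at -0.0588 ± 0.103 (n = 3), and did not pass (limma adjusted p = 0.305). Leaving out single WT libraries moved this value between -0.109 and -0.00557, so its place among the neighbours is uncertain. Fam212b, named here after its value was seen, was the other that did not pass (limma adjusted p = 0.0924). The most silenced neighbour was Lrif1, a partner of heterochromatin protein 1, with a z of -0.375 ± 0.0387 (n = 3, limma adjusted p = 4.50e-06). With Dox, 26 of the 31 neighbours had a lower allelic ratio than Rbm15, while in NoDox 19 of 31 did. Around Mettl14, 10 of 17 neighbours had a lower ratio than that gene with Dox and 5 of 17 in NoDox.

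Both genes were also silenced in Suz12 null cells. Mettl14 had NoDox ratios of 0.404, 0.404 and 0.411 and Dox ratios of 0.201, 0.158 and 0.275. The groups did not overlap, and the Dox libraries spread more widely than in WT. The z of -0.195 ± 0.0592 (n = 3) had an adjusted p of 0.000109 in limma. Rbm15 had NoDox ratios of 0.459, 0.448 and 0.445 and Dox ratios of 0.369, 0.340 and 0.376. Its z of -0.0893 ± 0.0191 (n = 3) had an adjusted p of 0.000202 in limma, and its groups did not overlap. In this line 73.2% of the 538 genes were called silenced, the median z was -0.122, and Mettl14 and Rbm15 ranked 168 and 340 from the most silenced. The Xi:Xa ratio kept 38.3% of its uninduced level for Mettl14 and 68.9% for Rbm15.

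The loss of Suz12 was compared with WT as the difference of the z values, which asks whether silencing of each gene needs Polycomb repressive complex 2. For Mettl14 the difference was 0.0174, with a 95% confidence interval from -0.0683 to 0.103 and a limma adjusted p of 0.852, and the WT and Suz12 null libraries overlapped. Leaving out Dox replicate 3 of the Suz12 null line turned this difference to -0.0146. For Rbm15 the difference was 0.0521 (interval 0.00885 to 0.0953), meaning weaker silencing in Suz12 null cells, with an unadjusted p of 0.0228 and an adjusted p of 0.340 in limma, so it did not pass. All 3 Suz12 null z values of Rbm15, the lowest of them -0.111, were closer to 0 than the 3 WT values, the highest of them -0.137. How many of the 538 genes separated in this way was not counted, so this does not set Rbm15 apart. The exact permutation p of 0.1 is the smallest that 3 against 3 allow. The z values of a line share its mean NoDox ratio, so the spread of the NoDox libraries does not enter this test. The calls over the table were few, with 0.372% of 538 genes called, namely Nup210l and Gpr89, named here after their values were seen and within 2 Mb of neither gene. A shift in this direction was widespread: 79.0% of genes had a positive difference, the median was 0.0343, and 32.0% of genes had a larger one than Rbm15. None of the 17 neighbours of Mettl14 and none of the 31 neighbours of Rbm15 was called in limma, with 2 and 1 of them at an unadjusted p under 0.05, as were 71 of all 538 genes.

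In the uninduced cells, the NoDox ratio of Rbm15 averaged 0.451 ± 0.00740 in Suz12 null cells against 0.478 ± 0.00771 in WT (SD, n = 3). This difference of -0.0274 (interval -0.0579 to 0.00316) had a limma adjusted p of 0.821 and an unadjusted p of 0.0738. The groups did not overlap, which gave an exact permutation p of 0.1, the smallest that 3 against 3 allow. How many of the 538 genes separated in this way was not counted. With Dox the ratio averaged 0.362 ± 0.0191 against 0.337 ± 0.00764 (n = 3), and there the libraries overlapped. For Mettl14 the uninduced difference was 0.00216 (interval -0.0585 to 0.0628, limma adjusted p = 0.979). In this comparison limma called 0% of 538 genes, and 29 genes had an unadjusted p under 0.05.

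Dox replicate 3 gave the weakest silencing of Mettl14 in both lines, with a z of -0.178 in WT and -0.131 in Suz12 null cells. The same libraries also had the weakest median z over all 538 genes, -0.141 in WT against -0.168 and -0.174, and -0.0974 in Suz12 null cells against -0.133 and -0.141. Rbm15 followed less closely, with -0.137 in WT replicates 2 and 3 and -0.0753 in Suz12 null replicate 3. The part of these libraries in the spread of Mettl14 was not tested.

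Both genes were silenced in all Lbr null clones, with the mean z of Mettl14 in the high class and that of Rbm15 near the border of the low and high classes. For Mettl14 the ratio went from 0.392 to 0.133 in clone 4C7A, from 0.406 to 0.143 in clone 4C8E and from 0.427 to 0.139 in clone 4F9F. The Dox values were low in all 3 clones, far from the NoDox values and closer together than in the other lines, and z was -0.270 ± 0.00494 (n = 3) with an adjusted p of 1.30e-05 in limma. Here each Dox library was set against the mean NoDox ratio, and with each clone against its own NoDox library the SD was 0.0160. With the clone as a term in the fit, the limma adjusted p for Mettl14 was 0.00037. The Xi:Xa ratio kept 23.3% of its uninduced level, a fall of 4.29-fold. For Rbm15 the ratio went from 0.471 to 0.325, from 0.505 to 0.308 and from 0.529 to 0.325 in the same clones. The uninduced values differed more between clones than the Dox values did, and z was -0.183 ± 0.00946 (n = 3) with a limma adjusted p of 0.000169. Against its own NoDox library each clone gave -0.146, -0.197 and -0.205, an SD of 0.0316. With the clone as a term, the limma adjusted p for Rbm15 was 0.00145. Being called silenced was again the rule, at 92.5% of 517 genes, and the ranks from the most silenced were 165 for Mettl14 and 274 for Rbm15, around a median z of -0.191.

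In the WT pair of the same table, Mettl14 went from 0.366 to 0.217 and Rbm15 from 0.493 to 0.360, which gave z values of -0.149 and -0.133 with no replicate. The difference in z between Lbr null clones and the WT pair was -0.121 for Mettl14 and -0.0495 for Rbm15, and with 1 WT library in each state it has no replicate check. Of 517 genes, 4.06% had a lower difference than Mettl14 and 15.1% a lower one than Rbm15, around a median of 0.00641. Among neighbours, 0 of 18 had a lower difference than Mettl14 and 11 of 31 a lower one than Rbm15. With the lone WT libraries assumed to vary like the clones, neither gene passed in limma. Their titles name mRNA, so a difference between RNA fractions cannot be told apart from one between the lines. limma called 0% of 517 genes, with 25 at an unadjusted p under 0.05. The 3 WT Dox libraries of the other table gave -0.212 for Mettl14 and -0.141 for Rbm15, and no test was made across tables.

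Both genes stayed above the median z of their neighbours in WT and both null lines. For Mettl14 this gap (gene z minus neighbour median within each Dox library, then averaged) was 0.0802 ± 0.00364 in WT, 0.0865 ± 0.0203 in Suz12 null and 0.0798 ± 0.0123 in Lbr null cells (SD, n = 3), positive (less silenced than the neighbours) in 3 of 3 Dox libraries each time. The WT pair gave 0.192. For Rbm15 the gap was 0.0829 ± 0.0229, 0.0905 ± 0.0182 and 0.0928 ± 0.0123, again positive in 3 of 3 Dox libraries of each line, and 0.113 in the WT pair. Between Suz12 null and WT gaps the exact permutation p was 0.6 for Mettl14 and 0.7 for Rbm15, from a test of 3 against 3 libraries that cannot show the gaps to be equal. The gap is a position among neighbours and not a test of either gene against them. For Mettl14 in Lbr null cells it dropped to 0.0452 with the mean of the neighbours in place of the median. The neighbour medians around Rbm15 averaged -0.224 in WT and -0.180 in Suz12 null cells of one table. In the other they were -0.275 in Lbr null cells and -0.246 in the WT pair. Those around Mettl14 averaged -0.293, -0.281, -0.350 and -0.341 in the same order. No neighbour was called between Suz12 null and WT cells, and the Lbr comparison has only 1 WT library in each state.

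**Figure D2:**
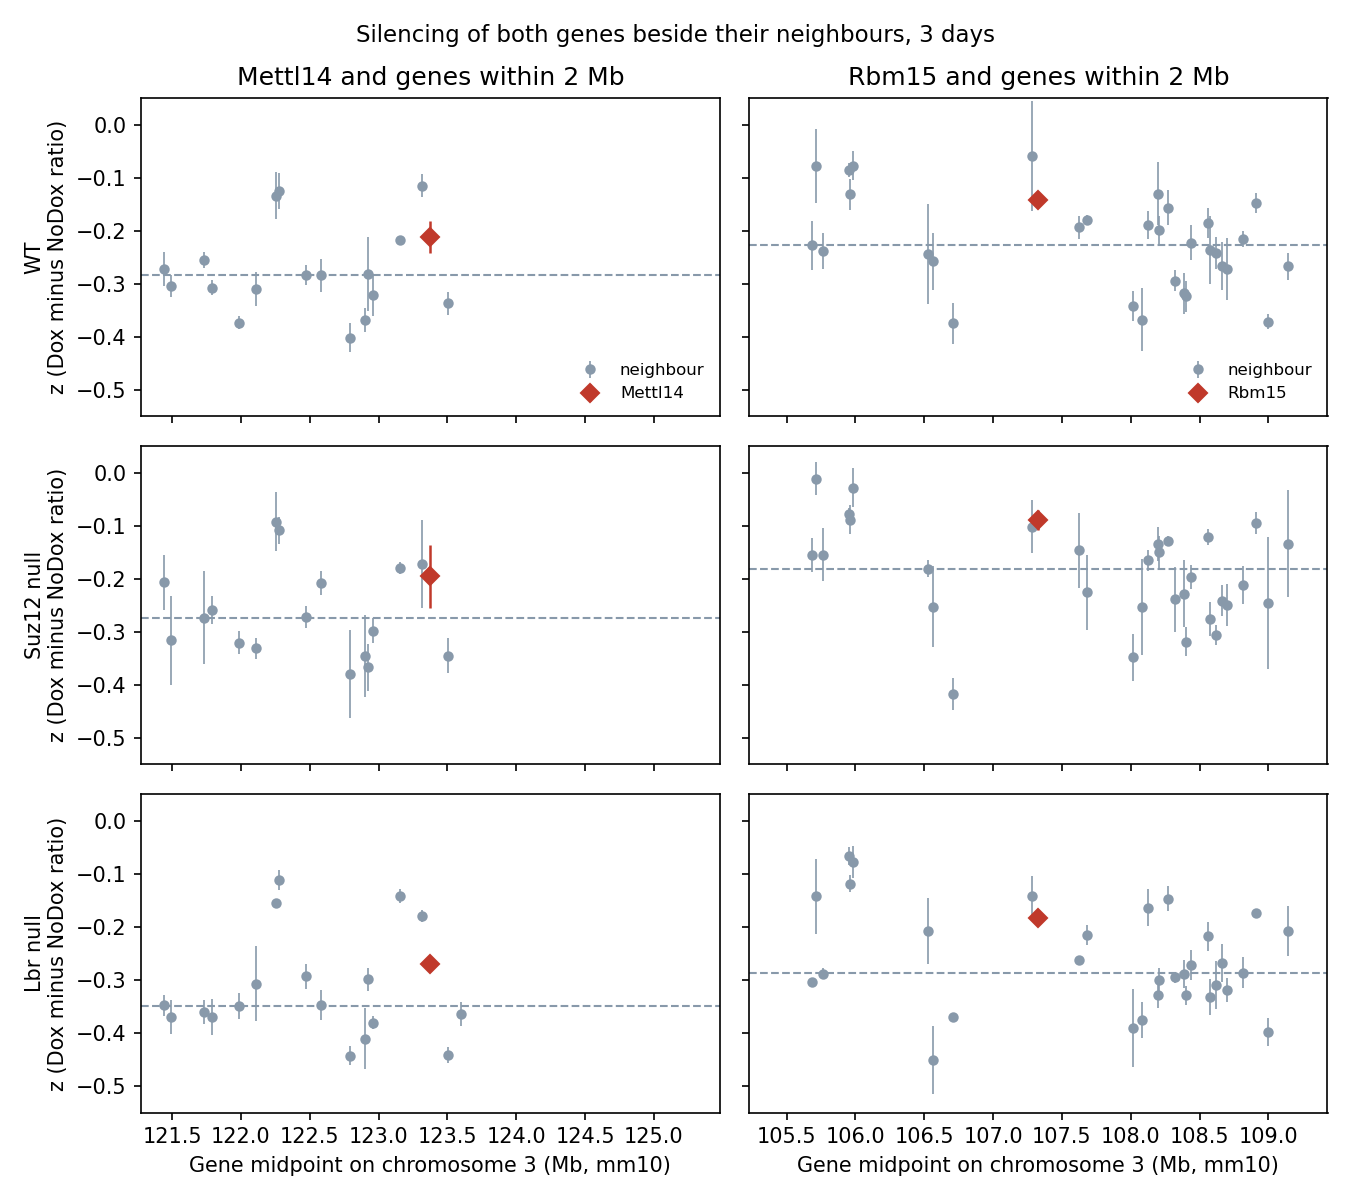
Silencing (z, Dox minus NoDox allelic ratio, y axis) of Mettl14 (left, red diamond) and Rbm15 (right, red diamond) and of the genes within 2 Mb (grey) against gene midpoint on chromosome 3 (Mb, x axis), in WT, Suz12 null and Lbr null cells. Points are means with SD over 3 Dox libraries and dashed lines are medians of the neighbours' mean z; both genes lie above the dashed line in all 3 lines.

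Compared directly, Mettl14 lost more of its ratio than Rbm15 in each of the 10 Dox libraries. The difference in z was -0.0709 ± 0.0258 in WT, -0.106 ± 0.0436 in Suz12 null and -0.0872 ± 0.0138 in Lbr null cells (SD, n = 3), and -0.0155 in the WT pair. On the log2 scale of the Xi:Xa ratio it was -0.67 ± 0.24 in WT, -0.85 ± 0.41 in Suz12 null and negative in 3 of 3 Lbr null clones. Within each table, the mean z of both genes was lower in WT than in Suz12 null cells and lower in Lbr null cells than in the WT pair, and none of these differences passed after adjustment.

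Over all 20 libraries of both tables, the gene with the ratios most like those of Mettl14 was Pde4dip, a centrosome and Golgi scaffold, with a root mean square difference of 0.0245, and Sars (0.0301), Trim2 (0.0370) and Zgrf1 (0.0381) were also among the closest 5. These 4 lay 4.21 to 39.2 Mb from Mettl14, and the median difference over 497 genes was 0.119. For Rbm15 they were Fbxw7 (0.0280), a ubiquitin ligase subunit, Pkia (0.0281), Prpf38b (0.0282), Prkacb (0.0283) and Car13 (0.0292), against a median of 0.0917. Among these Prpf38b, a splicing factor gene, is also a neighbour of Rbm15, at 1.58 Mb, with an RPKM of 65.3. Mettl14 and Rbm15 differed from each other by 0.126.

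Of 26 genes of the m6A pathway (12 writers, 2 erasers and 12 readers), 3 were listed in the chromosome 3 tables. The member other than Mettl14 and Rbm15 was Ythdf3, a cytoplasmic reader of m6A, at chr3:16183183-16217037 (plus strand) and 110 Mb from the insertion. Its ratio averaged 0.460 ± 0.00944 in NoDox and 0.443 ± 0.00552 in Dox WT libraries (SD, n = 3), a z of -0.0164 that did not pass (interval -0.0439 to 0.0111, limma adjusted p = 0.231), and only 6 of 538 genes had a z closer to 0 or above it. In Suz12 null cells its z was -0.00157 (limma adjusted p = 0.915). In Lbr null clones its z of -0.0377 passed (limma adjusted p = 0.0271) and did not with the clone as replicate block (limma adjusted p = 0.0655) or with any clone left out. The RPKM of Ythdf3, 75.2, was close to that of Rbm15. The pluripotency marker Sox2 is not among the genes listed in the tables, and of 6 fibroblast feeder markers only Cyr61 was, with an RPKM of 134, so the cell type could not be checked here.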

How the data were processed

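The authors removed rRNA reads with Bowtie2 2.3.2, aligned ChrRNA-seq reads to N-masked mm10 with STAR 2.4.2a, sorted the reads by allele (SNPsplit) and made strand-specific gene counts (featureCounts), and dropped genes with fewer than 10 reads over SNPs. The deposited values are fractions, Xi/(Xi + Xa), per gene and library, and 1 deposited RPKM per gene. Depth is not recoverable from them. The labels' shared growth protocol gives a shorter doxycycline time than the 72 h of these libraries. Deposited starts count from 0 and were raised by 1 base.

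Here limma 3.58.1 (R 4.3.3) was fitted to the ratios with 1 coefficient per group, over all 12 libraries (538 genes) or all 8 (517 genes), with eBayes and Benjamini-Hochberg adjustment over each table at 0.05, after a check on simulated data. Exact two-sided permutation tests used scipy 1.17.1. Xi:Xa ratios came from allelic ratios clipped to 0.01 and 0.99. Each Dox library was set against the mean NoDox ratio of its line. Neighbours had midpoints within 2 Mb, and could be named when nearest on either side or most or least silenced in WT, or when called between Suz12 null and WT; similar genes were the 5 with the smallest root mean square difference. Members and lists were chosen with earlier results of these data known. Transcripts are RefSeq's. The transgene position came from the study's methods.

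Lbr null NoDox and Dox libraries pair by clone, as their titles say, although deviations of paired libraries from the group means correlated between only -0.113 and 0.0283 across genes. Alternatives covered the scale, the variance model, gene filters, pairing, left-out libraries, the window and the methods' Student statistic. The authors' group means and their columns of comparisons (a p-value for Suz12 null against WT, and mean differences for WT and Lbr null) were not used, nor were the X chromosome tables, which do not list these genes. Of the RefSeq promoter table, Rbm15 matched and Mettl14 did not.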

Additional observations from a re-analysis of the deposited data

How the results depend on the processing

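Silencing of Mettl14 and Rbm15 kept its direction and passed the test in WT, Suz12 null and Lbr null cells under every alternative run. Mettl14 ranged from -0.229 to -0.201 in WT, from -0.227 to -0.168 in Suz12 null and from -0.275 to -0.261 in Lbr null cells on the ratio scale, and Rbm15 from -0.145 to -0.137, from -0.0964 to -0.0785 and from -0.201 (without clone 4C7A, past the border of the high class) to -0.172. The Suz12 null minus WT difference of Rbm15 stayed between 0.0450 and 0.0629 and did not pass after adjustment (limma adjusted p up to 0.551). The same difference of 0.0521 passed by the methods' Student statistic without adjustment, and its exact permutation p was 0.1. Both were run here on z, so the spread of the NoDox libraries enters neither of them. For Mettl14 leaving out single libraries gave -0.0146 to 0.0440, and for its uninduced difference -0.00368 to 0.0138. Genes called between Suz12 null and WT numbered 2, but 1 with genes of uninduced ratio 0.2 to 0.8, 3 without Dox replicate 3 of the Suz12 null line, and 117 (unadjusted) or 5 (Benjamini-Hochberg) by the methods' Student statistic as run here on z; the cause was not tested.

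With the replicate block (the replicate number as a term), the uninduced comparison called 3 genes in place of 0. In no pair of groups of the WT and Suz12 null table did all 3 same-numbered pairs of libraries correlate over 0.1, so the number is not taken as a pairing, although in 3 of the 6 pairs of groups each library correlated best with its own number. The clone as a block ended the call of Ythdf3 in Lbr null cells and no other call of a named gene. Leaving out a clone gave Ythdf3 -0.0420 to -0.0334, also without a call, and in Suz12 null cells leaving out single libraries moved it from -0.00645 to 0.00286, with no call. Lamtor5 ranged from -0.109 to -0.00557 in WT cells, without a call. Lamtor5 in Suz12 null cells, at -0.102, was called only in the fit of that line's libraries alone (limma adjusted p = 0.0373).

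The gap of Mettl14 to its neighbours in WT was 0.0896 within 1 Mb, 0.0636 with the mean of the neighbours and 0.0719 to 0.0893 with a replicate left out. In Lbr null cells it was 0.0602 within 5 Mb, 0.0452 with the mean, 0.0631 to 0.0840 with a clone left out, and 0.0643 with each clone set against its own NoDox library, a choice made after seeing the data. In the WT pair it was 0.202 within 1 Mb, 0.185 within 5 Mb and 0.164 with the mean. The gap of Rbm15 in Lbr null cells was 0.110 within 1 Mb and 0.0770 with the mean. All gaps stayed positive. Unknown depth limits what single ratios can show, and 1 WT pair limits the Lbr comparison.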
